A study of Mus musculus with 10 samples.

Results

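The Klk1 cluster is a family of closely related serine proteases, the tissue kallikreins, encoded side by side on mouse chromosome 7. The array annotation gave 13 probe sets with a single gene symbol that is Klk1 or one of 8 listed Klk1b genes, out of 34958 probe sets with a single symbol. They cover 9 of the 18194 genes named in this way. Klk1 had 4 probe sets, Klk1b5 had 2, and Klk1b1, Klk1b8, Klk1b11, Klk1b16, Klk1b21, Klk1b24 and Klk1b27 had 1 each. A probe set is the group of short probes that reads one transcript, and paralogues this similar can hybridise to each other's probes, so every probe set is described on its own and its gene name remains uncertain to that extent.

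Expression was measured on 10 Affymetrix arrays of medullary thymic epithelial cells (mTECs), 5 from wild-type (WT) and 5 from Fezf2 KO mice, all aged 3 weeks and on a C57BL/6 background. The cells of both groups were sorted from thymus as CD45-, EpCAM+ and CD80hi, which takes mature epithelial cells and leaves out leukocytes. The labels do not say which part of Fezf2 was deleted, in which cells, or whether each array came from a different mouse, so the errors given here describe how these arrays vary and may be technical in origin. Arrays are named by the numbers in their titles, WT 1 to WT 5 and KO 6 to KO 10.

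Klk1 is the true tissue kallikrein, which cuts kininogens to release the vasoactive kinins. In rodents the gene has multiplied into the Klk1b family, whose members differ in the proteins they cut and are best known as secreted products of the male submandibular salivary gland. mTECs express many such products of peripheral organs and show them to developing T cells, and Fezf2 is a zinc finger transcription factor needed for part of this repertoire.

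The sequences just upstream of these genes show how alike the members are. The 9 promoter windows of RefSeq (build GRCm38.p6), each 300 bases long from 250 before to 50 after the annotated start, were compared in all 36 pairs, and identity over the aligned bases ran from 78.4% to 97.7% with a median of 85.7%. Between 204 and 298 bases were aligned, and unaligned bases were not counted. As a share of the whole window, the lowest pair, Klk1b8 and Klk1, was identical at 53.3%. The 100 bases before the start are printed below, 5′ to 3′, for a gene with much lower signal in KO cells (Klk1b16), its closest relative by promoter (Klk1b11), the member with the second largest difference (Klk1b1), and a near-identical pair that differed little or moderately (Klk1b21 and Klk1b24). Capitals mark TTTAAA, a variant of the TATA box known from rodent kallikrein genes. All 5 lie on the plus strand.
Klk1b16, chr7:44137190-44137289: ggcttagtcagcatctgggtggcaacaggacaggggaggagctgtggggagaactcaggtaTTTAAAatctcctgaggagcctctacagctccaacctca
Klk1b11, chr7:43995777-43995876: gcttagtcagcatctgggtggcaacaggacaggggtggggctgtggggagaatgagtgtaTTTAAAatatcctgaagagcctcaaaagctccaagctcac
Klk1b1, chr7:43966651-43966750: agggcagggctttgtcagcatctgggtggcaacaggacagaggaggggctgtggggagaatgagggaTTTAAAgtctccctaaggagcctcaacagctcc
Klk1b24, chr7:44188136-44188235: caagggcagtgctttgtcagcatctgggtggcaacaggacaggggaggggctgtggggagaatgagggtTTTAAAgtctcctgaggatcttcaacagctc
Klk1b21, chr7:44102192-44102291: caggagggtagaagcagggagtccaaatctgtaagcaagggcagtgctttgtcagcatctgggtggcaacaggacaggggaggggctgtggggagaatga

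The run tcagcatctgggtggcaacagga occurs in all 5 sequences. TTTAAA, which reads the same on both strands, was found in 8 of the 9 whole windows, the exception being Klk1, against 13.2% of the 32851 windows of all genes. It began between 17 and 44 bases before the annotated start in 7 genes and 5 bases after it in Klk1b21, whose annotated start lies further upstream. That of Klk1 also lies further upstream, since the last bases before it match the first bases printed above for Klk1b1. A like site in Klk1 could fall past the end of its window, so this search cannot show that the gene lacks TTTAAA. The classical TATAAA was in 0 of 9 windows and in 13.6% of all windows. AGAACA, a hexamer bound by steroid hormone receptors, was searched on both strands because kallikreins of the salivary gland respond to androgens. It was present in 1 of 9 windows, that of Klk1b24, and in 19.0% of all windows. A match of letters describes the window only.

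The family was picked with the comparison of KO and WT arrays already known. The differences of its members between the genotypes are therefore given as a description, with no test. Values are the deposited linear signals, and a log2 change is the difference of the group means of log2(signal + 16), KO minus WT, which understates the change of weak signals. Levels of different probe sets are not comparable with each other. All 13 probe sets exceeded the 40th percentile of the array, the level used to filter weak signals, on each of the 10 arrays, so none was lost to the filter.

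Signal of the targeted gene matched the labels. Fezf2 signal was between 5054 and 5895 on the WT arrays and between 12.1 and 18.3 on the KO arrays, where it did not reach the 40th percentile. It thus entered the model over all genes through the WT arrays alone, and no p-value is given for it. The epithelial marker Epcam, between 6994 and 7564 in WT and between 7456 and 7985 in KO cells, was high on every array. Summed signals of 9 leukocyte markers ran from 5169 to 5619 in WT and from 3464 to 4384 in KO cells, and those of 5 endothelial markers from 218 to 448 and from 446 to 529. Most of the leukocyte sum was Lyz2, whose mean was 4291 for WT and 3187 for KO arrays, so the sum largely follows that gene. Of the 7 leukocyte markers tested, Lyz2 and Csf1r fell, Itgam rose and 4 did not pass. Those 4 were Ptprc, the gene of CD45 (log2 change -0.18, limma, adjusted p = 0.325), Cd3e, Cd4 and Cd8a. The model over all genes called 16.2% of them lower and 13% higher (limma, adjusted p under 0.05). Among the 5 endothelial markers 4 rose. Pecam1 and Emcn, which are among these, exceeded the 40th percentile on the 5 KO arrays and 1 WT array. Both thus entered the test through the group where they were higher. A sum compares arrays and does not weigh one probe set against another. The sum of 5 fibroblast markers ran from 1625 to 1931 in WT and from 1880.3 to 2594 in KO cells, with Dcn and Lum higher, and that of 9 mTEC markers from 62978 to 73737 and from 69543 to 73352, with Aire lower and Krt5, Tnfrsf11a and Cldn4 higher. The call of Aire was lost without WT 3, WT 4 or WT 5, where its adjusted p reached 0.0681, and that of Dcn without WT 2, WT 3 or WT 4, where it reached 0.0636 (limma). No marker on these lists was below the 40th percentile on every array. Their part in the kallikrein signals was not tested. Fewer cells with kallikrein transcripts and less transcript per cell cannot be told apart in such bulk samples.

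Kallikrein signal was lower in Fezf2 KO cells across most of the cluster, by very different amounts. Klk1b16 kept 20.1% of its mean WT signal and Klk1b1 42.5%. Klk1b5, Klk1b24, Klk1b27, Klk1 and Klk1b11 kept between 48.8% and 64.8% on the probe set with the highest mean, Klk1b8 kept 73.3% and Klk1b21 88.0%. The median log2 change of the 9 genes was -0.80, beside -0.03 for all 14087 genes tested.

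**Figure D1:**
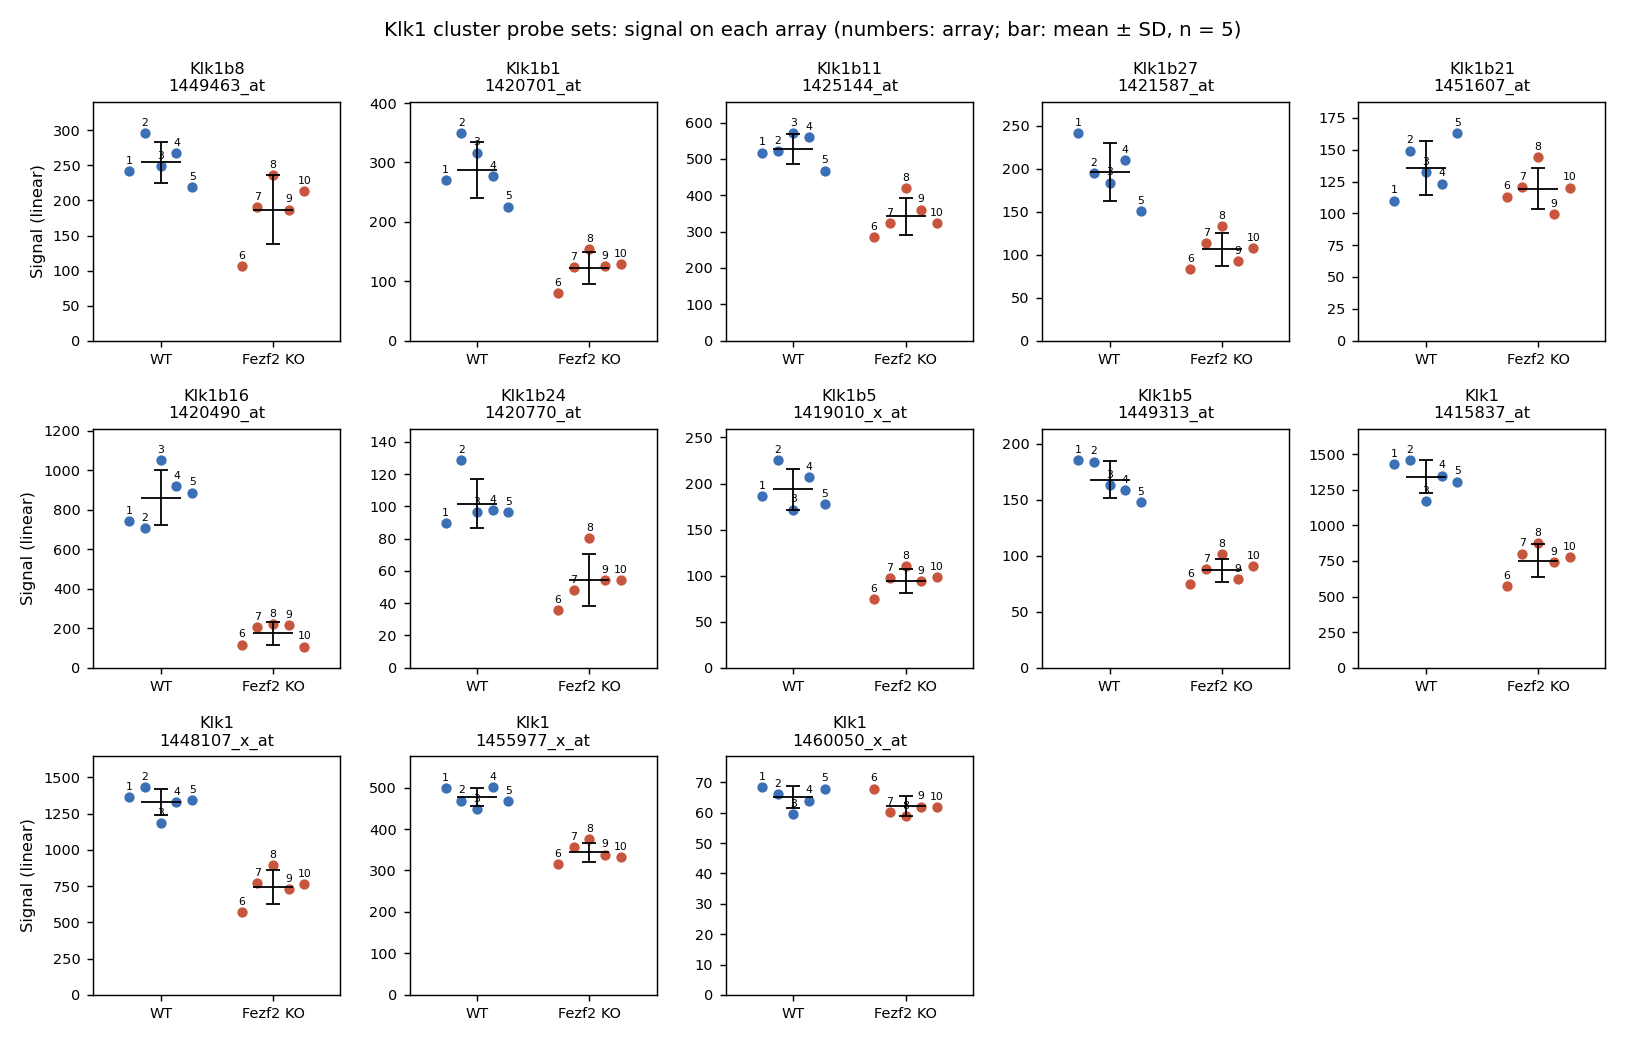
Linear signal of each of the 13 Klk1 cluster probe sets on the 5 WT (blue) and 5 Fezf2 KO (red) arrays, with vertical axes from 0; small numbers name the arrays and bars give the mean ± SD. KO signals lie below all WT signals in 10 of the 13 panels and overlap them for Klk1b8, Klk1b21 and the weakest Klk1 probe set.

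Klk1b16, also known as gamma-renin, showed the largest difference of the family. Its signals were 742, 708, 1051, 919.9 and 887 on WT 1 to WT 5 and 117, 207, 223, 214 and 107 on KO 6 to KO 10. Every KO array lay below every WT array, and within the KO group KO 6 and KO 10 formed a low pair. Mean signal was 862 ± 139.5 in WT against 174 ± 56.6 in KO cells (SD, n = 5 each), a log2 change of -2.25 (SE 0.23) or 4.77-fold on that scale.

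Klk1b1 came second. It was 271, 349.6, 316, 276 and 225 on the WT arrays and 79.8, 124, 154, 126 and 128 on the KO arrays. Here KO 6 alone was low within its group, and the groups did not overlap. The log2 change was -1.14 (SE 0.17), with means of 288 ± 47.3 and 122 ± 26.7 (SD, n = 5 each).

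Klk1, the kinin-releasing enzyme itself, was read by 4 probe sets that did not give the same difference. On the strongest, signals were 1429, 1459, 1172, 1349.9 and 1308 in WT and 571, 802, 875, 739.7 and 777 in KO cells, without overlap (log2 change -0.83, SE 0.12). The second strongest, whose _x_at suffix marks probes that may also bind other transcripts, followed it closely, with means of 1330.0 ± 91.2 and 745 ± 117 (SD, n = 5 each) and a log2 change of -0.83 (SE 0.11). A further _x_at probe set gave -0.45 (SE 0.05), from 477 ± 22.1 to 344 ± 23.2 (SD, n = 5 each), again with every KO array below every WT array. The weakest, also _x_at, was between 59.6 and 68.4 in WT and between 58.9 and 67.9 in KO cells, with a log2 change of -0.05 (SE 0.04). This probe set showed no separation of the genotypes, and it was the single one of the 13 in which KO 6 was the highest and KO 8 the lowest KO array.

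The 2 probe sets of Klk1b5 gave like differences. Signals of the stronger, an _x_at probe set, were 187, 225, 172, 207 and 177 in WT and 74.2, 96.9, 109.9, 93.8 and 98.0 in KO cells, a log2 change of -0.92 (SE 0.10). Those of the weaker, which carries no suffix for shared probes, ran from 148 to 185 in WT and from 74.5 to 102 in KO cells, a log2 change of -0.84 (SE 0.09). The groups were apart on both.

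Klk1b21, Klk1b24 and Klk1b27 are a trio known from the Leydig cells of the mouse testis, and their promoter windows are among the most alike in the family, at 91.3% to 97.7% identity. Their differences were unequal. Klk1b27 was 242, 195, 184, 210.4 and 150.4 in WT and 83.5, 114, 134, 92.3 and 108 in KO cells (log2 change -0.80, SE 0.15), with the groups apart. Klk1b24 was 89.4, 129, 96.3, 97.5 and 96.6 in WT and 35.8, 47.8, 80.1, 54.4 and 54.3 in KO cells (log2 change -0.76, SE 0.16) and the groups apart, KO 8 lying closest to WT. Klk1b21 was 110.0, 149, 132, 123 and 163 in WT and 113, 121, 144, 99.2 and 120.2 in KO cells, so that the groups overlapped and 1 KO array lay below all WT arrays (log2 change -0.16, SE 0.12). The windows of Klk1b21 and Klk1b24 were identical at 97.7% of 265 aligned bases.

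Klk1b11 and Klk1b8 had the smaller differences among the rest. Klk1b11 was 518, 522, 572, 560.1 and 468 in WT and 284, 323, 419, 360.2 and 324 in KO cells, apart but close at KO 8 and WT 5 (log2 change -0.61, SE 0.10). Its promoter window is identical to that of Klk1b16 at 91.6% of 298 aligned bases, while the log2 change of Klk1b16 was -2.25. Klk1b8 was 242, 296, 249, 268 and 219 in WT and 107, 191, 237, 187 and 213 in KO cells. KO 8 lay inside the WT range, and the log2 change of -0.45 (SE 0.19) became -0.28 without KO 6, whose signal was far below the other KO arrays.

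For reference, a model over all genes (limma, Benjamini-Hochberg adjustment, adjusted p under 0.05) called 16.2% of the 14087 genes lower and 13% higher in KO cells, 29.2% in all. The same model called 7 of the 9 kallikrein genes lower, 0 higher, and left Klk1b8 and Klk1b21 below its threshold. KO signals lay entirely below WT signals for 12% of all genes and for 7 of the 9, and entirely above for 10.1% of all genes and 0 of the 9. Since the family was chosen on this contrast, nothing further is read from these counts.

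Probe sets outside the listed members bear on the same cluster. A pair of probe sets, each assigned to more than one kallikrein gene and so left unnamed, had log2 changes of -1.54 (762 ± 166 to 252 ± 51.4) and -0.85 (1947 ± 132 to 1093 ± 233; SD, n = 5 each), and in both every KO array lay below every WT array. The transcribed pseudogene Klk1b7-ps was weak, between 17.2 and 26.0 in WT and between 13.0 and 17.2 in KO cells, and passed the 40th percentile on 2 of 10 arrays. It was not counted as a member.

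The spread within the KO group was shared by most members. KO 8 was the highest KO array in 12 of the 13 probe sets, and in 9 of 9 genes on their strongest probe set, while it was the highest in 18.7% of all tested genes. KO 6 was the lowest KO array in 10 of the 13 and in 7 of 9 genes, against 40.6% of all tested genes. Averaged over the 9 genes, log2 signal relative to the WT mean was -1.25 on KO 6, -0.57 on KO 8 and between -0.90 and -0.83 on the other KO arrays, whereas the WT arrays lay between -0.10 and 0.11. No WT array had such a share of extremes, the highest being WT 2 in 6 of 13 probe sets. Paralogues that share probe signal are not separate observations of this pattern.

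**Figure D2:**
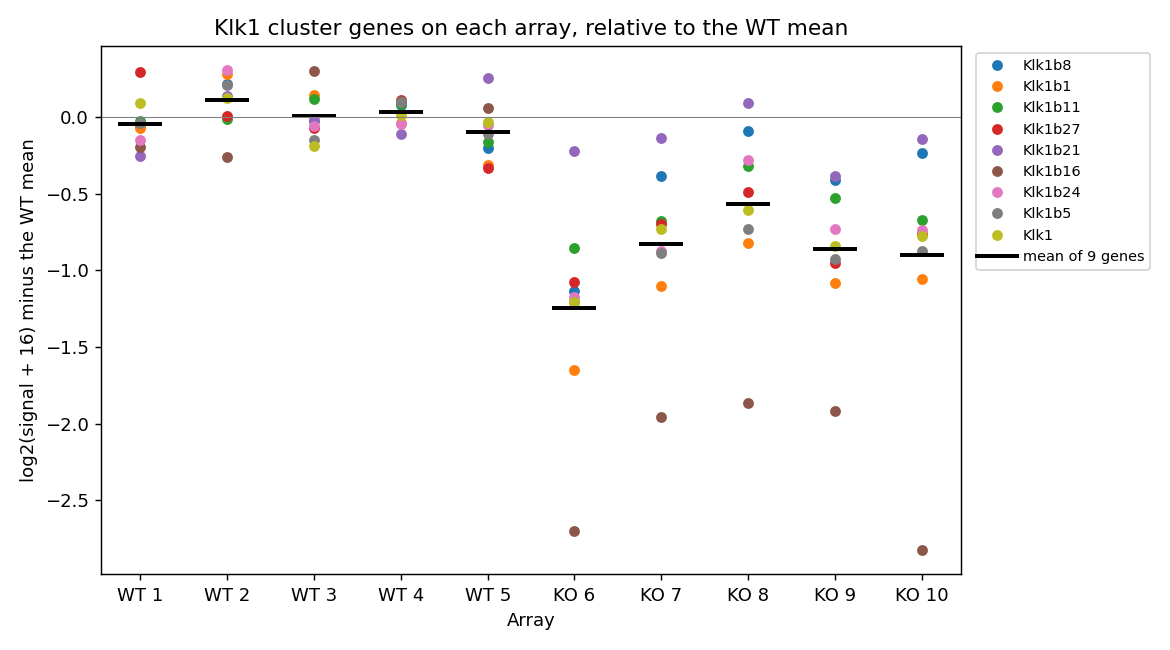
Each point is log2(signal + 16) of a Klk1 cluster gene on an array minus its WT mean, for the strongest probe set of each of the 9 genes; black bars are the mean of the 9. The black bar is lowest on KO 6 (-1.25) and highest within the KO group on KO 8 (-0.57), and Klk1b16 lies far below the other genes on every KO array.

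Other features of the arrays varied at the same time. Mean signal of the 18S ribosomal RNA probe sets was highest on KO 6 (3762) and WT 1 (3445), the remaining 8 arrays lying at 765 to 1774. The female-specific transcript Xist stayed at 30.0 or less on KO 6, KO 8 and WT 2 and reached 5304 or more elsewhere, so both the lowest and the highest KO array for kallikreins lacked Xist signal. With low Xist signal as a covariate the log2 change of Klk1b16 was -2.22, that of Klk1b1 -1.15 and that of Klk1 -0.83. Without WT 1 and KO 6 the corresponding values were -2.19, -1.03 and -0.71. Aire, which also drives such antigens in mTECs, was lowest on KO 6 as well, at 4368 against 6899 to 7203 on the other KO arrays, and its part in the kallikrein signals was not tested.

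In chromosomal order the differences did not follow position. From Klk1b8 at one end to Klk1 at the other, the log2 changes were -0.45 for Klk1b8, -1.14 for Klk1b1, -0.61 for Klk1b11, -0.80 for Klk1b27, -0.16 for Klk1b21, -2.25 for Klk1b16, -0.76 for Klk1b24, -0.92 for Klk1b5 and -0.83 for Klk1. The largest and the smallest difference thus belonged to measured neighbours, Klk1b16 and Klk1b21. Lower signal was also measured outside the cluster. On the side of Klk1b8, beyond the other Klk genes, 3 of 7 measured genes fell and 0 rose (limma over all genes), namely Ctu1 (log2 change -0.40), Ceacam18 (-0.60) and Zfp819 (-0.60), the last pair being close in size to Klk1b11. On the side of Klk1, 1 of 6 measured genes fell and 1, Clec11a, rose, with log2 changes from -0.23 to 0.25. Over all genes tested, 16.2% were called lower and 13% higher, and nothing is read from these few genes. These flanking genes were named after their values were seen.

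**Figure D3:**
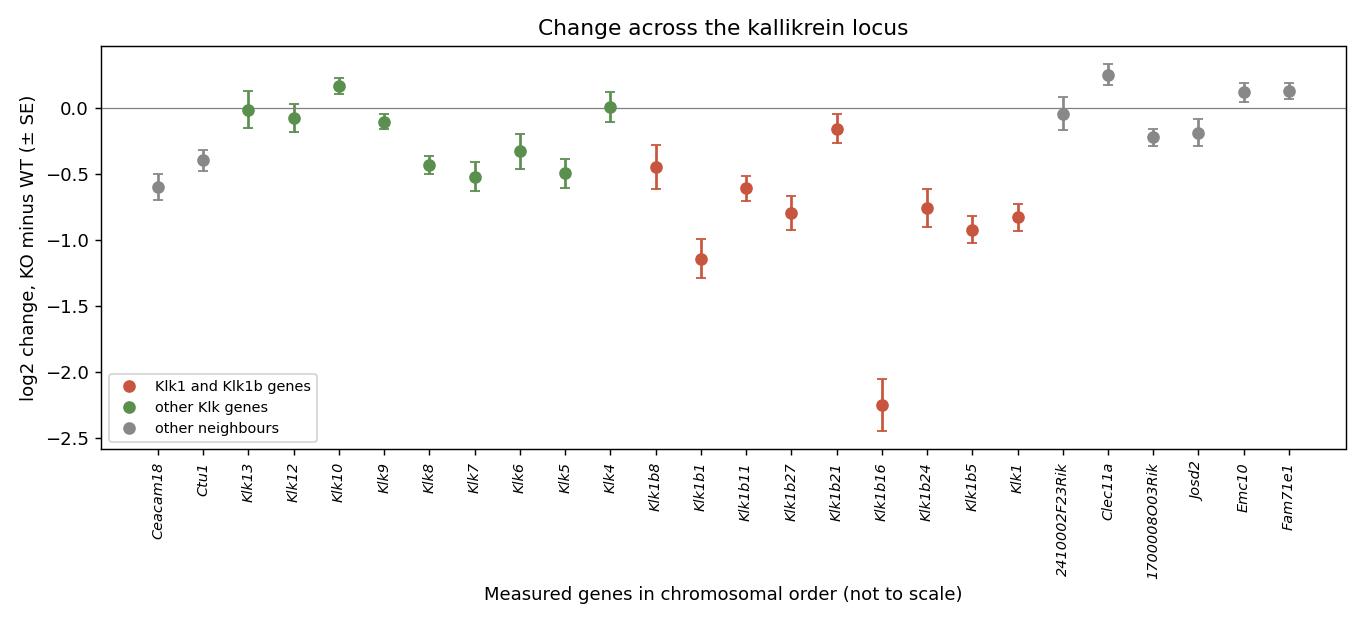
Log2 change (KO minus WT, ± SE of the model over all genes, n = 5 arrays each) of the measured genes of the kallikrein locus and its flanks in chromosomal order, spaced evenly. Klk1 and Klk1b genes (red) run from -0.16 to -2.25, the other Klk genes (green) from 0.16 to -0.52, and the neighbour Ceacam18 (grey, left) lies at -0.60.

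The kallikrein-related peptidases Klk4 to Klk13, epidermal and secretory proteases encoded next to the cluster, had smaller differences. Of 9 tested, 3 fell, 0 rose and 6 did not pass, where 16.2% of all genes were called lower and 13% higher. Their median log2 change was -0.11, beside -0.03 for all genes. Klk7, a protease of skin desquamation, fell from 1054 ± 137 to 729 ± 108, Klk5, which activates it in human skin, from 402 ± 38.2 to 282 ± 49.7, and Klk8, neuropsin, from 245 ± 9.32 to 178 ± 15.4 (SD, n = 5 each; limma, adjusted p = 0.00365, 0.00473 and 0.00054). The median of the Klk1 cluster was larger in size, at -0.80, and the difference between the families was not tested.

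Partners of tissue kallikrein in the kinin system were compared in the same way. Of 16 tested genes of that system and its substrates, 5 fell, 0 rose and 11 did not pass. Over all genes, 16.2% were called lower and 13% higher. The median log2 change of the 16 was -0.08, beside -0.03 for all genes. Kng1, the kininogen from which Klk1 releases kinin, was at 288 ± 37.5 in WT against 290.3 ± 27.4 in KO cells (log2 change 0.01, SE 0.10, limma, adjusted p = 0.934). Bdkrb1, the inducible kinin receptor, fell from 224 ± 32.9 to 153 ± 11.5 (log2 change -0.50, SE 0.09, limma, adjusted p = 0.00151), and the constitutive receptor gene Bdkrb2 had a log2 change of -0.12 (limma, adjusted p = 0.258). The inhibitors A2m, alpha-2-macroglobulin, and Serping1, the C1 inhibitor, fell by 0.53 and 0.33 on the log2 scale. Cpn1, a kinin-trimming carboxypeptidase, and Klkb1, plasma kallikrein, fell by 0.37 and 0.34, both at weak signal. Klkb1, whose mean was 24.3 ± 1.69 in WT against 15.8 ± 1.41 in KO cells (SD, n = 5 each), exceeded the 40th percentile on the 5 WT arrays and on no KO array, so it entered the test through the group where it was higher, and its call carries no weight as support.

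Genes of the salivary gland, not all of them secreted products, were compared as well. Of 15 tested, 3 fell, 2 rose and 10 did not pass, shares near the 16.2% lower and 13% higher of all genes, with a median log2 change of -0.05. Lpo, the salivary peroxidase, fell from 2259 ± 167 to 1759 ± 262 (limma, adjusted p = 0.0162). Aqp5, the water channel of salivary acini, rose from 73.5 ± 14.7 to 189 ± 57.8 (SD, n = 5 each; log2 change 1.17, limma, adjusted p = 2.83e-04). Prol1 (log2 change -0.67), Sval1 (-0.46) and the carbonic anhydrase gene Car6 (0.60) also passed, but the call of Prol1 was lost without WT 4, WT 5, KO 6, KO 7 or KO 9, that of Sval1 without WT 1, WT 2, KO 9 or KO 10, and that of Car6 in each fit without WT 3, WT 4, WT 5, KO 6, KO 7, KO 8 or KO 9. Egf, a growth factor that kallikreins of the gland process, was at 32.0 ± 4.09 in WT and 35.0 ± 3.22 in KO cells.

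**Figure D4:**
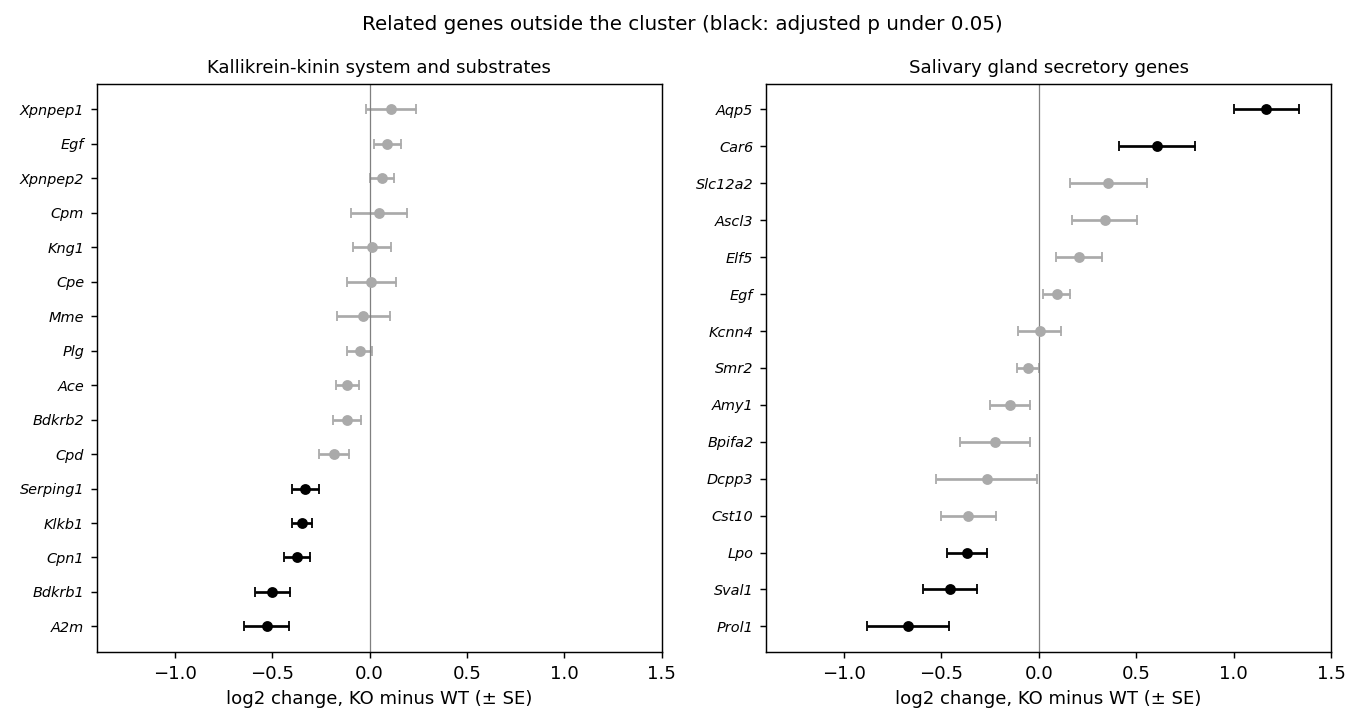
Log2 change (KO minus WT, ± SE, n = 5 arrays each) of tested genes, black where the adjusted p is under 0.05. The kinin system and its substrates are on the left and salivary gland genes on the right. In the left panel 5 genes are black and all lie below 0, and in the right panel 3 lie below and 2 above.

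Genes whose profile over the 10 arrays was most like the mean of the 9 kallikreins were sought by the root mean square difference of log2 signals, each taken relative to its WT mean. Among the genes kept for this search, the 5 nearest outside the cluster were Dnah9, Nts, Prss29, Acaa1b and Rd3, at 0.11 to 0.12, with log2 changes from -0.94 to -0.77. Prss29 is itself a serine protease, and went from 576 ± 30.5 to 313 ± 61.8 (SD, n = 5 each). The nearest to Klk1b16 were Smtnl1, Calb1, Maoa, Resp18 and Cracd, at 0.27 to 0.41. The nearest of the other listed members was at 0.85 from Klk1b16. Probe sets assigned to more than one kallikrein gene were not part of this search. Left out as well were predicted genes, clone-like symbols and symbols of a single letter followed by digits. Signals were taken relative to the WT mean, so these distances depend largely on the size of the KO minus WT change. That change was largest for Klk1b16 (-2.25), so nothing about likeness to its paralogues is read from them. Smtnl1 went from 656 ± 47.0 to 141 ± 30.3 and Calb1 from 529 ± 26.6 to 117 ± 14.1 (SD, n = 5 each).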

How the data were processed

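The authors deposited one linear intensity for each probe set and array. The submitters' processing notes name MAS5 alone. For its scaling target and background step nothing is given in the sources used here. Array medians lay between 36.5 and 38.0. Of 45101 probe sets, 34958 had 1 gene symbol, 932 several and 9211 none in the platform annotation. The model over all genes used probe sets above the 40th percentile of their array on at least 5 of 10 arrays (23581), the one with the highest mean per gene (14087 genes), and log2(signal + 16) in limma 3.58.1 (R 4.3.3, eBayes with trend and robust), with no further normalization, Benjamini-Hochberg adjustment and a threshold of 0.05. The procedure was tested on simulated data. The standard errors of members come from their own arrays. Detection calls were not used, and the number of arrays limits the precision.

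Members, gene lists and tests were chosen with earlier results of these data known. The lists were the kinin system and its substrates (23 genes, 19 with a probe set, 16 tested) and salivary gland genes (28, 21 and 15). Other kallikrein-related peptidases (12, 10 and 9) and markers of mTECs, leukocytes, fibroblasts and endothelium were listed too. Named genes were all members, Fezf2, Aire, Xist, list members past the threshold and the 5 genes nearest in profile. Kng1, Bdkrb2, Egf and Epcam were added for their role. Klk1b7-ps, Klk10, Ctu1, Ceacam18, Zfp819, Clec11a, Ptprc, Cd3e, Cd4 and Cd8a were added after their values were seen. Promoters were matched by symbol (9 of 9) and aligned globally in Biopython 1.88. Gene order came from RefSeq GRCm38.p6 by promoter position, since the annotated Klk1b21 locus encloses other genes.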

Additional observations from a re-analysis of the deposited data

Results flagged for a closer look

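Within-group outliers were sought on the log2 scale by the gap of the extreme array relative to the range of its 5 arrays (Dixon's ratio above 0.71), a rule that chance alone meets in about 1 in 20 groups. Among 26 groups of kallikrein signals 1 met it, as WT 2 stood above the other WT arrays for Klk1b24, at 129 against 89.4 to 97.5. Among 132 groups of the other listed genes and Fezf2 14 did.

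KO 6 accounted for 4 of the 14. Aire was at 4368 on KO 6 against 6899 to 7203 on the other KO arrays, and Klk4 at 241 against 352 to 382. Slc12a2 was at 1785 on KO 6 against 831 to 953, and Dcn at 1589.7 against 1133 to 1238. KO 10 was below the other KO arrays for Car6 at 579.5 against 743 to 795, for Cst10 at 167 against 233 to 262, and for Lyz2 at 2622 against 3221 to 3420.

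WT 2 was above the other WT arrays for Bdkrb1, at 282 against 201 to 217, and for Klk10, at 31.4 against 24.5 to 26.1. WT 1 was above them for Itgam, at 40.4 against 24.6 to 28.3, and for Pecam1, at 38.1 against 15.8 to 20.9. Kng1 was low on WT 3, at 223 against 289 to 311. Within the KO group Bdkrb2 was low on KO 8, at 91.4 against 109.7 to 116, and Xpnpep2 high on KO 9, at 27.7 against 23.7 to 24.6.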

How the results depend on the processing

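Every probe set of the cluster had a lower KO than WT mean under each of the 18 alternatives computed for single probe sets, with Klk1b16 between -2.36 and -1.98 and the weakest Klk1 probe set between -0.08 and -0.03. The number of kallikrein genes called lower was 7, or 8 when Klk1b8 passed as well, which it did with array weights, without KO 6, without KO 8, without WT 1 and KO 6, and with those arrays as a block, and 0 were called higher throughout. With an offset of 64 the median of the family was -0.61. Over all genes, 1313 were lower and 1160 higher at a threshold of 0.01, and 2838 probe sets were higher when each kept probe set was its own feature. Among the other kallikrein-related peptidases 1, Klk10, was higher with quantile normalization, median centring, array weights or WT 1 and KO 6 as a block, and 1 was higher when the probe sets of each gene were averaged. With the filter at the 60th percentile their median was -0.33, and 3 kinin system genes and 1 salivary gene were lower. Without a filter 1 kinin system gene was higher and 5 salivary genes were lower. Lower salivary genes numbered 1 without WT 1 and KO 6 and 0 at the threshold of 0.01, and 1 was higher at that threshold or with Xist as a covariate. Leaving out 1 array at a time gave 0 to 1 higher related peptidases, 1 to 3 lower and 1 to 2 higher salivary genes. The causes were not tested. No paired analysis was possible because the arrays of the groups share no replicate numbers.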
